A study of Mus musculus with 8 samples.

Results

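The genes described here carry pyruvate into the mitochondrion, convert it to acetyl-CoA, run the citrate cycle and move reducing equivalents through malate and aspartate. They were taken by name from a list of 33 symbols. A probe set of the array carried the symbol of 32 of them, among 19933 genes measured in all. Mpc2, the partner of Mpc1 in the pyruvate carrier, had no probe set under its own name or its older name in the annotation used and was not analysed here. For Ldhb, Suclg2 and Got2 the array holds 2 probe sets, and the brighter of the pair stands for the gene.

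Pyruvate from glycolysis or from lactate enters the mitochondrial matrix through a carrier and is oxidised to acetyl-CoA by the pyruvate dehydrogenase complex, which kinases switch off and phosphatases switch on. Citrate synthase joins acetyl-CoA to oxaloacetate, and the cycle returns oxaloacetate while it releases carbon dioxide and loads NADH for the respiratory chain. The working heart draws nearly all of its ATP from mitochondria, burns mainly fatty acids, and brings cytosolic NADH into the matrix through the malate-aspartate shuttle.

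RNA of the left ventricle was measured on Affymetrix mouse gene arrays, with 1 array for each of 8 C57/Bl6 mice aged 11 weeks. The groups were 2 PlGF mice, 3 mice labelled PlGF/RGS4 and 3 control mice. PlGF is placental growth factor, an angiogenic growth factor, and RGS4 is a protein that shortens G protein signalling. The transgenes were under a TET-OFF system with the tTA driver on the αMHC promoter, which is active in cardiomyocytes. Doxycycline in the diet repressed them until 5 weeks of age, and expression then ran for 6 weeks. Controls were littermates that inherited a single transgene, so that a control could carry the driver or a responder, and the labels do not say which. Each array is labelled as a biological replicate, and the sex of the mice is not stated.

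The tissue and the labels were checked first. All 13 cardiomyocyte markers were measured, and Myh6, the adult cardiac myosin heavy chain, lay between 12023 and 13622 in every array. Pgf, the gene of PlGF, had an intensity of 4136 and 917 in the PlGF arrays and of 211 to 300.0 in the arrays labelled PlGF/RGS4, against 211 to 387 in control arrays. The Pgf probe set was thus raised in both PlGF arrays, and the arrays labelled PlGF/RGS4 showed no such rise. Rgs4 was at 235 and 195 in the PlGF arrays, 187 to 234 in the arrays labelled PlGF/RGS4 and 209.5 to 281.5 in control arrays. The values of the arrays labelled PlGF/RGS4 therefore do not bear out that label for either gene. Whether the probe sets detect the transgenes of that line was not tested. PlGF replicate 1 stood apart, with a mean correlation of 0.974 to the arrays of the other groups, where the other 7 arrays had 0.991 to 0.993. Xist, which marks female tissue, was low in 1 array of each group (26.9 in PlGF replicate 1, 36.1 in PlGF/RGS4 replicate 2 and 50.8 in control replicate 2) and at 2581 to 2958 elsewhere. In bulk tissue, fewer cells of a type and less RNA per cell cannot be told apart.

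The first question was how these genes stood in hearts with PlGF expression against control hearts. All 32 genes had a negative log2 difference in PlGF versus control, and the median was -0.27, beside -0.03 over all genes. The differences ran between -0.55 for Pdk4 and -0.01 for Got2. Under quantile normalization the count of negative values was 31, since Got2 was then at 0.03. With limma and Benjamini-Hochberg adjustment over all genes, 1 of the 32 passed an adjusted p of 0.05, and it was lower (0.748% of all genes were lower by this rule). At an unadjusted limma p under 0.05, 17 members were lower (53.1%) and 0 were higher, beside 11.7% of all genes lower and 10.9% higher. In 19 members (59.4%) both PlGF arrays lay below every control array, beside 19.5% of all genes.

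The PlGF arrays contributed unequally to these values. The median member stood at -0.40 in PlGF replicate 1 and at -0.10 in PlGF replicate 2, on the log2 scale as a difference from the control mean. The arrays labelled PlGF/RGS4 were at -0.08, -0.02 and -0.07, and the control arrays were at 0.01, 0.02 and -0.03. PlGF replicate 1 was below PlGF replicate 2 in 30 members (93.8%), beside 52.8% of all genes, and it was the lowest of the 8 arrays in 28 of them (87.5%), beside 35.7% of all genes. Without PlGF replicate 1 the number lower at an unadjusted limma p under 0.05 was 6 of 32 and the median was -0.10, beside 7.16% of all genes lower in that fit. PlGF/RGS4 replicate 2 and control replicate 2, which had low Xist as PlGF replicate 1 did, had member medians of -0.02 and 0.02. Within the PlGF group, Xist level and replicate cannot be told apart, and the part of sex was not tested.

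**Figure D1:**
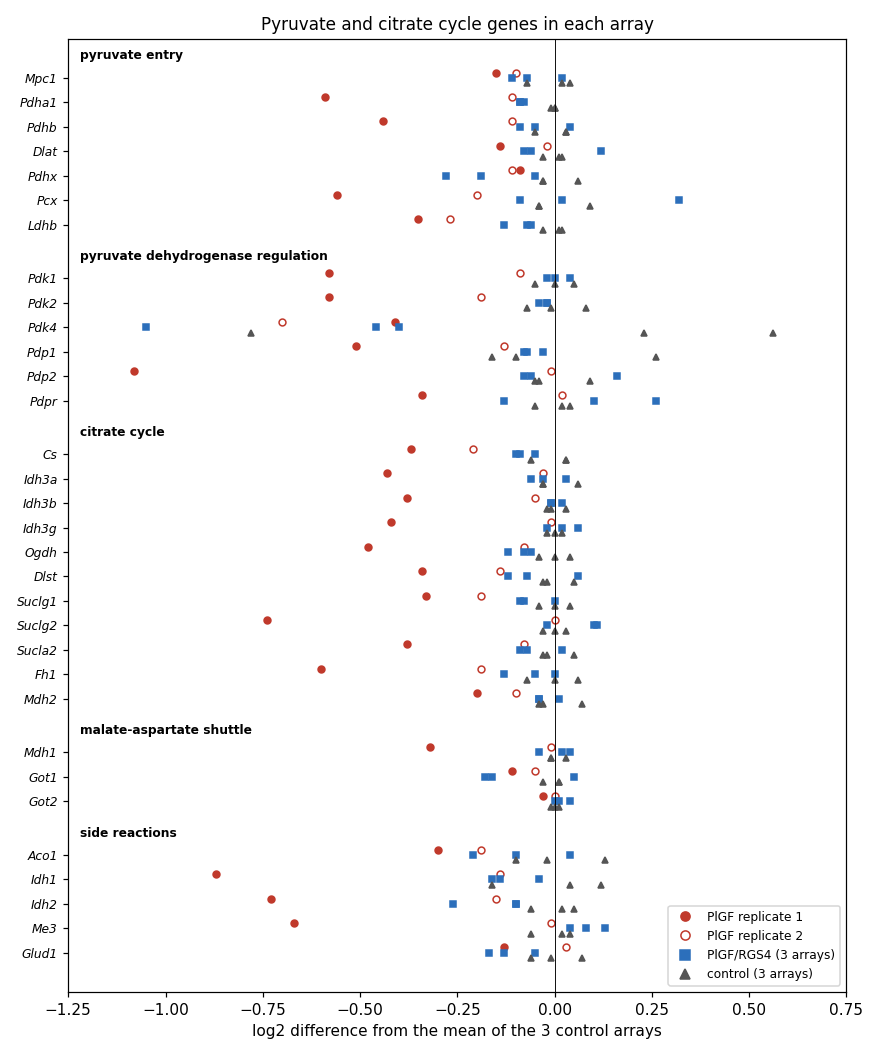
Each row is a gene and each point an array, placed by its log2 difference from the mean of the 3 control arrays (filled circles for PlGF replicate 1, open circles for PlGF replicate 2, squares for PlGF/RGS4, triangles for control). PlGF replicate 1 lies left of the other arrays in 28 of 32 rows, while Pdk4 shows the widest scatter among control arrays.

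Among the genes of pyruvate entry, Ldhb fell in PlGF hearts. Ldhb encodes the heart-type subunit of lactate dehydrogenase, which turns lactate into pyruvate. Its intensity was 5528 and 5844 in PlGF mice, 6433, 6743 and 6685 in mice labelled PlGF/RGS4, and 7091, 7147 and 6866 in control mice. The 3 groups did not overlap, and PlGF was lowest. The log2 difference in PlGF versus control was -0.31 ± 0.05 (SE, limma adjusted p = 0.0356). An exact permutation test gave p = 0.1, the smallest that 2 arrays against 3 allow. The arrays labelled PlGF/RGS4 differed from control by -0.09 ± 0.05 (limma adjusted p = 0.995), and PlGF from PlGF/RGS4 by -0.22 ± 0.05 (limma adjusted p = 0.1). The other Ldhb probe set had a difference of -0.38 ± 0.08 in PlGF versus control, with a limma adjusted p of 0.0605. Leaving out any array other than PlGF replicate 2 also ended the call, with a limma adjusted p of 0.0721 to 0.121. Ldha, which encodes the subunit typical of skeletal muscle, was at 0.09 ± 0.07.

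The pyruvate dehydrogenase complex was measured through 4 of its genes. Pdha1, the alpha subunit of the decarboxylating enzyme, had an intensity of 4087 and 5698 in PlGF mice, of 5788, 5792 and 5797 in mice labelled PlGF/RGS4, and of 6159, 6164 and 6114 in control mice. The groups were again in that order without overlap, and the control arrays were close together, with a coefficient of variation of 0.448%. The log2 difference of Pdha1 in PlGF versus control was -0.35 ± 0.12 (limma adjusted p = 0.151), and without PlGF replicate 1 it was -0.11. Pdhb, the beta subunit of the same enzyme, was at 1481 and 1853 in PlGF mice and at 1886, 2064 and 1933 in mice labelled PlGF/RGS4, against 1933, 2043 and 2043 in control mice. Its difference in PlGF versus control was -0.28 ± 0.10 (limma adjusted p = 0.15). Dlat, the acetyltransferase core of the complex, was at -0.08 ± 0.07 and overlapped control.

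Pdhx, which binds the dihydrolipoamide dehydrogenase to that core, followed another order. Its intensity was 967 and 952 in PlGF mice and 848, 992 and 901 in mice labelled PlGF/RGS4, against 1069.8, 1006 and 1008 in control mice. The 3 arrays labelled PlGF/RGS4 all lay below control, by -0.17 ± 0.07 (limma unadjusted p = 0.0314, adjusted p = 0.945), and the PlGF arrays lay within their range. Mpc1, the measured subunit of the pyruvate carrier, was at 6019 and 6262 in PlGF mice and at 6377, 6785 and 6226 in mice labelled PlGF/RGS4, against 6899, 6813 and 6393 in control mice. The PlGF arrays lay below control by -0.13 ± 0.06 (limma adjusted p = 0.267). Pcx, pyruvate carboxylase, which refills oxaloacetate, was at 252 and 326 in PlGF mice and at 377, 466 and 351 in mice labelled PlGF/RGS4, against 396, 362 and 362 in control mice. It was lower in PlGF by -0.38 ± 0.14 against control (limma adjusted p = 0.179) and by -0.46 ± 0.14 against PlGF/RGS4 (limma adjusted p = 0.164). Neither Pcx difference passed the adjusted threshold.

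**Figure D2:**
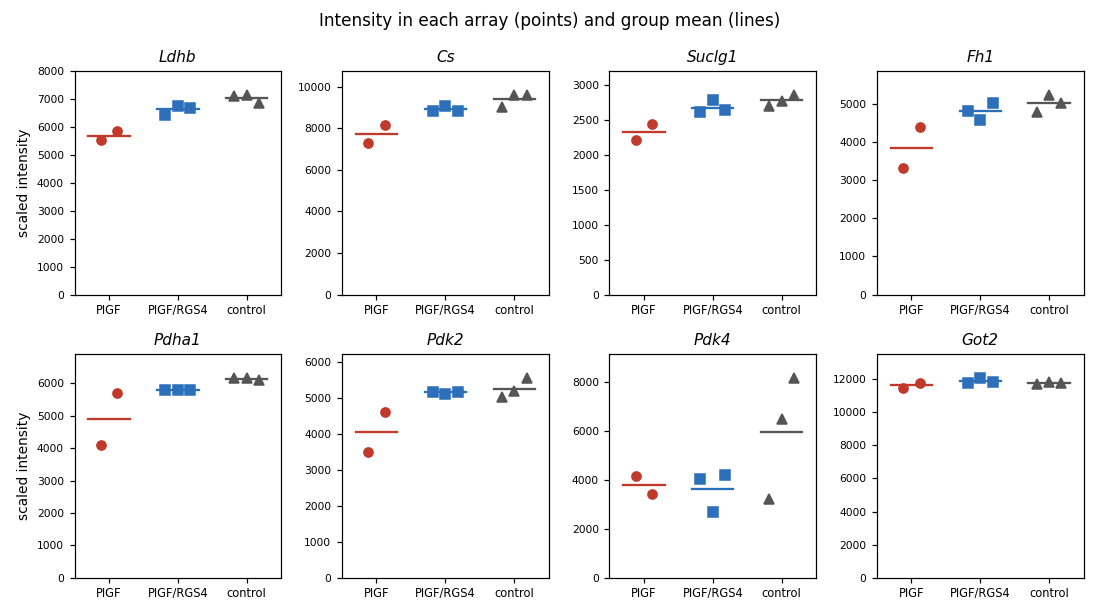
Scaled intensity of 8 genes in each array (points) with the group mean (lines), for PlGF, PlGF/RGS4 and control from left to right, on axes that start at 0. Ldhb and Pdha1 step up over the 3 groups without overlap, while the Pdk4 control arrays span 3219 to 8161 and the Got2 arrays of all groups lie close together.

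Promoter sequence was read for 31 of the 33 listed genes from RefSeq (GRCm38.p6), as 250 bases before and 50 after each start. Ldhb and Cs, the 2 members with the smallest p in PlGF versus control, are shown by the 120 bases before the start site, at chr6:142507958-142508077 on the minus strand and at chr10:128337607-128337726 on the plus strand. Neither promoter held any of the motifs searched.
Ldhb: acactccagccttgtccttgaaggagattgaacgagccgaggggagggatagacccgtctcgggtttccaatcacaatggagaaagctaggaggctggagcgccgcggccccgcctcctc
Cs: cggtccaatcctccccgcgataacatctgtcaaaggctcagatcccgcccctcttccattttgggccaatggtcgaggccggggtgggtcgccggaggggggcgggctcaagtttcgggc

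Motifs of 4 factors linked to mitochondrial or metabolic genes were searched on both strands of these promoters. AAGGTCA, the core bound by oestrogen-related receptors, was in 2 of 31 members (Got1 and Ogdh; 6.5%), beside 5.38% of 27025 genes with a promoter. GCGCATGCG, the element of NRF1, was in Ogdh alone (3.2%, beside 1.95% of all genes), and CCGGAAGT, the element of GABP, was in Dlst alone (3.2%, beside 4.31%). The E-box CACGTG was in Ogdh, Pcx, Pdk2, Pdp2 and Pdpr (16.1%, beside 8.09%). Some genes, Ogdh among them, have several start sites and so more windows. The matches are shown in capitals in a stretch of Ogdh (chr11:6292533-6292557, plus strand), Got1 (chr19:43524834-43524855, minus strand) and Pcx (chr19:4510222-4510239, plus strand), as examples of 3 of the motifs before a start site. These are matches of letters and no evidence of binding.
Ogdh: taggtgttgtGCGCATGCGtaactc
Got1: cccagAAGGTCAggaggttgtc
Pcx: ccCACGTGaggctttcaa

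The regulators of pyruvate dehydrogenase included the members with the largest scatter between control arrays, Pdk4 and Pdp1. None of the 6 passed the adjusted threshold. At an unadjusted limma p under 0.05, 2 were lower in PlGF versus control (Pdk1 and Pdk2; 33.3%, beside 11.7% of all genes). The median was -0.36, and without PlGF replicate 1 it was -0.11. Pdk2, the kinase form found at high levels in heart, was at 3495 and 4609 in PlGF mice and at 5161, 5103 and 5166 in mice labelled PlGF/RGS4, against 5005, 5194 and 5545 in control mice. Both PlGF arrays lay below all 6 others. The Pdk2 difference was -0.39 ± 0.11 against control (limma adjusted p = 0.103) and -0.36 ± 0.11 against PlGF/RGS4 (limma adjusted p = 0.161).

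Pdk4, the kinase that rises with fasting and fat oxidation, had an intensity of 4176 and 3418 in PlGF mice and of 4045, 2673 and 4217 in mice labelled PlGF/RGS4, against 3219, 6494 and 8161 in control mice. Control replicate 1 lay within the range of the transgenic arrays, and the control coefficient of variation was 42.2%, the highest of all members. The differences of -0.55 ± 0.38 in PlGF and -0.63 ± 0.34 in PlGF/RGS4 versus control therefore had the largest errors among the members. Within single arrays, the difference of Pdk4 from its control mean minus that of Pdk2 ran from -0.72 to 0.48 over the control arrays alone.

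Pdk1, another kinase of the complex, was at 821 and 1159 in PlGF mice and between 1186 and 1275 in the other arrays (-0.33 ± 0.13 against control, limma adjusted p = 0.183). The phosphatase subunit Pdp2 was at 155 and 326 in PlGF mice, 47.1% and 99.3% of the control mean. Its difference of -0.54 ± 0.27 thus rested on PlGF replicate 1, and without that array it was -0.01. Pdp1, the other catalytic phosphatase subunit, was at -0.32 ± 0.15 and Pdpr, the regulatory subunit, at -0.16 ± 0.13. Both overlapped control.

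Most genes of the citrate cycle proper were lower before adjustment. Of its 11 members, 8 were lower in PlGF versus control at an unadjusted limma p under 0.05 (72.7%, beside 11.7% of all genes), 8 lay below control without overlap (beside 19.5%), and the median was -0.24. None of the 11 passed the adjusted threshold. In pyruvate entry 6 of 7 lay below control without overlap (85.7%), and Ldhb alone passed the adjusted threshold. Without PlGF replicate 1, 3 of the 11 were lower before adjustment (beside 7.16% of all genes) and the median was -0.08.

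Cs, citrate synthase, which opens the cycle, was at 7288 and 8153 in PlGF mice and at 8835, 9071 and 8807 in mice labelled PlGF/RGS4, against 9027, 9609.9 and 9607 in control mice. Both PlGF arrays lay below the other 6, at 77.4% and 86.6% of the control mean. The log2 difference of Cs in PlGF versus control was -0.37 with PlGF replicate 1 alone and -0.21 with PlGF replicate 2 alone. A group of 1 array has no spread of its own, so the limma adjusted p of 0.00496 and 0.178 in those fits assumes that it varies like the other groups.

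Further along the cycle, Suclg1, the alpha subunit shared by both succinyl-CoA synthetases, was at 2211 and 2443 in PlGF mice and at 2612, 2792 and 2641 in mice labelled PlGF/RGS4, against 2709.6, 2779.9 and 2865 in control mice. Its difference in PlGF versus control was -0.26 ± 0.06 (limma adjusted p = 0.0725). Fh1, fumarate hydratase, was at 3309 and 4375 in PlGF mice and at 4813, 4567 and 5002 in mice labelled PlGF/RGS4, against 4766, 5229.8 and 5013 in control mice. For both genes the PlGF arrays lay below all the others, and the difference of Fh1 was -0.39 ± 0.11 (limma adjusted p = 0.106). Dlst, the succinyltransferase of the 2-oxoglutarate dehydrogenase complex, was at 3264 and 3762 in PlGF mice and at 3821, 4329.5 and 3954 in mice labelled PlGF/RGS4, against 4063, 4289 and 4083 in control mice (-0.24 ± 0.08 in PlGF versus control, limma adjusted p = 0.14). Ogdh, which catalyses the preceding step of that complex, was at -0.28 ± 0.11 in PlGF, and its arrays labelled PlGF/RGS4 were also below every control array (-0.09 ± 0.10).

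The beta subunits that give succinyl-CoA synthetase its nucleotide differed between the PlGF arrays. Suclg2, the GTP-forming subunit, was at 1312 and 2195 in PlGF mice and at 2373, 2162 and 2361 in mice labelled PlGF/RGS4, against 2157, 2244 and 2194 in control mice. Sucla2, the ATP-forming subunit, was at 4012 and 4946 in PlGF mice and at 4903, 5306 and 4987 in mice labelled PlGF/RGS4, against 5144, 5429.5 and 5112 in control mice. Taken as differences from their control means, Suclg2 minus Sucla2 was -0.36 in PlGF replicate 1 and 0.08 in PlGF replicate 2, beside 0.20, -0.05 and 0.17 in the arrays labelled PlGF/RGS4 and -0.03 to 0.03 in control arrays. PlGF replicate 2 thus lay within the spread of the other groups and PlGF replicate 1 outside it. The other Suclg2 probe set gave -0.39 ± 0.18, close to the -0.37 ± 0.18 of the brighter set. The 3 subunits of the NAD-linked isocitrate dehydrogenase, Idh3a, Idh3b and Idh3g, were at -0.23 ± 0.11, -0.21 ± 0.09 and -0.22 ± 0.11, with PlGF replicate 1 at 74.3%, 77.0% and 74.6% of control and PlGF replicate 2 at 98.0%, 96.5% and 99.1%.

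Mdh2, the malate dehydrogenase of the matrix, closes the cycle. It was at 9413 and 10122 in PlGF mice and at 10558, 10558 and 10875 in mice labelled PlGF/RGS4, against 10581, 11352 and 10558 in control mice. The PlGF arrays were below all others, by -0.15 ± 0.06 against control (limma adjusted p = 0.185).

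The 3 shuttle enzymes among the members, Mdh1, Got1 and Got2, had small differences. Of them 0 were lower in PlGF versus control at an unadjusted limma p under 0.05 and the median was -0.08. The carriers of the shuttle are not members and are given with the further genes. Got2, the mitochondrial aspartate aminotransferase, was at 11477 and 11768 in PlGF mice and at 11764, 12057 and 11826 in mice labelled PlGF/RGS4, against 11668, 11793 and 11764 in control mice, and its 3 groups overlapped (-0.01 ± 0.04 in PlGF versus control). Got1, the cytosolic form, was at 10806 and 11240.5 in PlGF mice and at 10323, 12058 and 10429.9 in mice labelled PlGF/RGS4, against 11796, 11462 and 11768 in control mice (-0.08 ± 0.08). Mdh1, the cytosolic malate dehydrogenase, was at 7845 and 9694 in PlGF mice and at 9882, 10074 and 9521 in mice labelled PlGF/RGS4, against 9957, 9681 and 9683 in control mice. Only PlGF replicate 1 left the range of the Mdh1 arrays, and the difference was -0.16 ± 0.09 (limma adjusted p = 0.302). These probe sets were among the brighter of the array, whose highest value was 21704, and whether the signal still rises in proportion to RNA there was not tested.

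Among the side reactions, the NADP-linked isocitrate dehydrogenases stood far apart between the PlGF arrays, with replicate 1 the lower. Idh2, the mitochondrial enzyme, was at 5544 and 8305 in PlGF mice and at 8565, 7659 and 8565 in mice labelled PlGF/RGS4, against 9299, 9498 and 8814 in control mice. All 5 transgenic arrays lay below control, with a difference of -0.44 ± 0.15 in PlGF (limma adjusted p = 0.152) and of -0.16 ± 0.14 in PlGF/RGS4 (limma adjusted p = 0.998). Idh1, the cytosolic enzyme, was at 720.0 and 1192 in PlGF mice and at 1177, 1281 and 1195 in mice labelled PlGF/RGS4, against 1427, 1355 and 1179 in control mice. PlGF replicate 1 was at 54.5% and PlGF replicate 2 at 90.3% of the Idh1 control mean. Me3, a mitochondrial malic enzyme, was at -0.34 ± 0.17 and overlapped control, with PlGF replicate 1 at 62.6% and PlGF replicate 2 at 99.6% of the control mean. Aco1, the cytosolic aconitase that also binds iron-responsive elements, was at -0.25 ± 0.10, with both PlGF arrays below control. Glud1, glutamate dehydrogenase, was at -0.05 ± 0.07 and overlapped control.

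**Figure D3:**
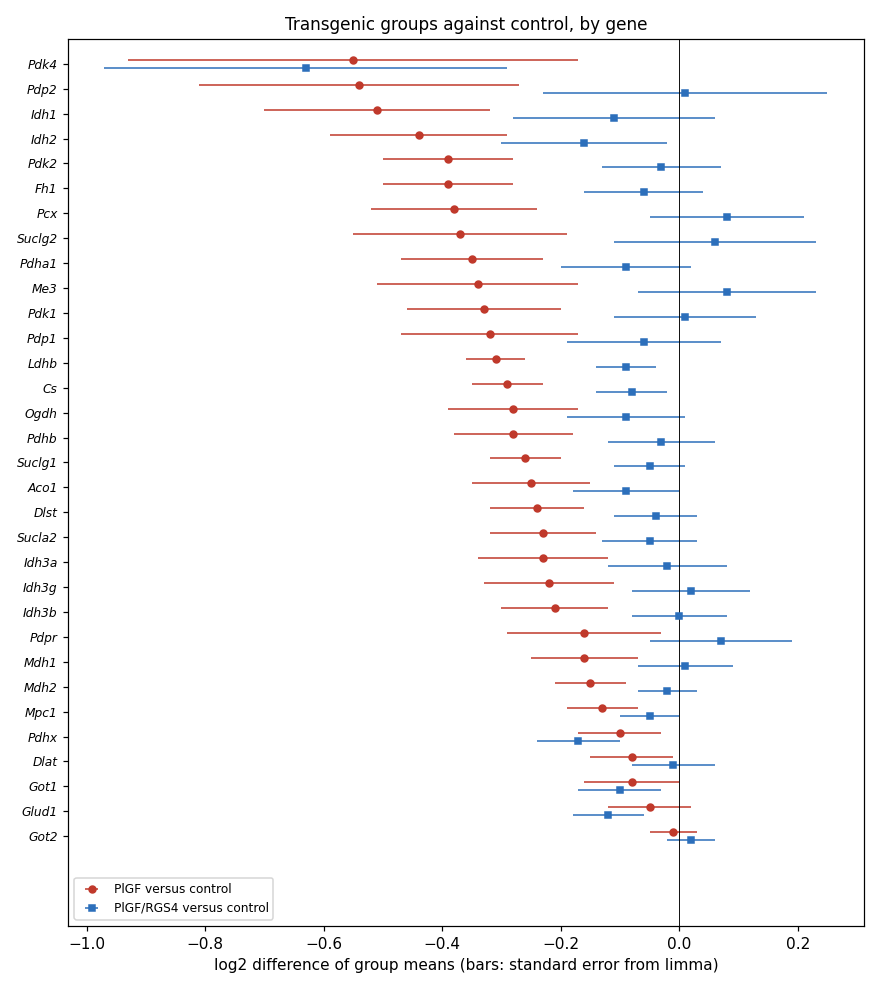
Log2 difference of the group means for each gene, with limma's standard error as bars, for PlGF versus control (circles) and PlGF/RGS4 versus control (squares), sorted by the PlGF value. The PlGF values run between -0.55 and -0.01 and those of PlGF/RGS4 between -0.63 and 0.08, and both use the same 3 control arrays.

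The second question was whether the genes differed in mice labelled PlGF/RGS4. Against control, 0 of 32 passed the adjusted threshold in limma (0.0151% of all genes did). At an unadjusted limma p under 0.05, Pdhx was lower and 0 were higher, beside 2.28% of all genes lower and 2.74% higher. In 5 members (15.6%; Pdha1, Pdhx, Ldhb, Ogdh and Idh2) the arrays labelled PlGF/RGS4 were all below control, beside 5.85% of all genes. The median was -0.04, with 22 values below 0 and 10 above, beside 0.00 over all genes.

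Set directly against PlGF/RGS4, PlGF hearts had 28 negative and 4 positive differences, with a median of -0.21 beside -0.03 over all genes. None of the 32 passed an adjusted p of 0.05 in limma (0.0853% of all genes were lower by this rule), and the lowest was 0.1, for Ldhb. At an unadjusted limma p under 0.05, 12 were lower (37.5%; beside 10.6% of all genes) and 0 were higher (beside 8.95%). In 14 members (43.8%) the PlGF arrays lay below all arrays labelled PlGF/RGS4, beside 19.9% of all genes. Cs and Suclg1 followed Ldhb, both at -0.21 ± 0.06 with a limma adjusted p of 0.159. The positive values belonged to Pdhx, Pdk4, Got1 and Glud1 and were at most 0.08. Without PlGF replicate 1, 1 of 32 members (3.12%) was lower before adjustment, beside 4.79% of all genes, and the median was -0.05.

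Of 40 further genes of pyruvate, citrate cycle and glutamate metabolism, 36 were measured. In PlGF versus control 3 were lower and 0 higher after adjustment in limma, 17 were lower and 4 higher at an unadjusted p under 0.05, and the median was -0.28. Of all genes 0.748% were lower after adjustment, and 11.7% were lower and 10.9% higher before it. Without PlGF replicate 1, 8 of the 36 were lower and 3 higher before adjustment, beside 7.16% and 6.95% of all genes, and the median was -0.09. The 3 were Glul, glutamine synthetase (-0.71 ± 0.12, limma adjusted p = 0.034), Slc16a1, a carrier of lactate and pyruvate across the plasma membrane (-0.41 ± 0.08, limma adjusted p = 0.0422), and Slc25a13, an aspartate-glutamate carrier of the shuttle (-0.59 ± 0.11, limma adjusted p = 0.0432). Without PlGF replicate 1 the limma adjusted p was 0.115, 0.143 and 0.0421 for these genes. For Glul, Slc16a1 and Slc25a13 the arrays labelled PlGF/RGS4 also lay below every control array. Their differences from control were -0.42 ± 0.10, -0.28 ± 0.07 and -0.20 ± 0.10 (limma adjusted p = 0.815, 0.808 and 0.995). Between PlGF and PlGF/RGS4 the limma adjusted p was 0.238, 0.375 and 0.146. The 4 higher in PlGF versus control before adjustment were Pdk3 (0.84 ± 0.22), Slc25a1, the citrate carrier (0.48 ± 0.12), Me2 (0.46 ± 0.13) and Acly, ATP citrate lyase (0.27 ± 0.09). All 4 had a limma adjusted p of 0.0816 to 0.135. Pdk3 was at 219 and 131 in PlGF mice and between 85.0 and 119 in the other 6 arrays. The 4 subunits of succinate dehydrogenase, Sdha to Sdhd, had differences of -0.21 ± 0.11, -0.34 ± 0.12, -0.33 ± 0.09 and -0.23 ± 0.06. None passed the adjusted threshold (limma adjusted p = 0.282, 0.155, 0.0879 and 0.089). Sdha overlapped control, at 6837 and 9102.5 in PlGF mice against 9038 to 9237 in control mice. For Sdhb, Sdhc and Sdhd both PlGF arrays lay below every control array. Of the other shuttle carriers, Slc25a11, which exchanges malate for 2-oxoglutarate, was at -0.30 ± 0.10 (limma adjusted p = 0.138) and Slc25a12 at -0.14 ± 0.08 (limma adjusted p = 0.332).

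Markers of other cells moved in the same arrays. Of 17 leukocyte markers 16 were measured, and their median stood at 1.45 in PlGF replicate 1 and 0.69 in PlGF replicate 2, against -0.06 to 0.10 in the other arrays. Their summed intensity was 15038 and 7607 in PlGF mice and 3752 to 4986 in mice labelled PlGF/RGS4, against 4162 to 4398 in control mice. After adjustment in limma, 8 of the 16 were higher in PlGF versus control, beside 1.79% of all genes. The T cell gene Cd3g was at 478 and 127 in PlGF mice, against 24.5 to 29.6 in the other groups, and the B cell genes Cd79a and Ms4a1 lay between 19.1 and 30.2 in all 8. The 8 fibroblast markers had a median of 0.54 and 0.08 in the PlGF arrays, against -0.09 to 0.07 in the other groups. Single fibroblast markers ran from -0.42 to 2.43 in PlGF replicate 1 and from -0.08 to 0.36 in PlGF replicate 2. In PlGF versus control 0 of the 8 passed adjustment in limma, and 3 differences were negative. At an unadjusted limma p under 0.05, 3 of the 8 were higher (beside 10.9% of all genes) and 0 were lower. The 10 endothelial markers had a median of 0.13 and 0.18 in the PlGF arrays, against -0.10 to 0.03 in the other groups, and a summed intensity of 16813 and 16135, against 13723 to 14411. After adjustment in limma, 1 of the 10 was higher in PlGF versus control and 0 were lower. At an unadjusted p under 0.05, 4 were higher and 1 was lower, beside 10.9% and 11.7% of all genes. The differences of the 10 ran from -0.74 to 0.57, and 4 were negative. The 13 cardiomyocyte markers had a median of -0.15 in PlGF replicate 1 and 0.00 in PlGF replicate 2. Single markers ran from -1.16 to 0.06 in PlGF replicate 1 and from -0.30 to 0.12 in PlGF replicate 2. Ryr2, the calcium release channel, was the cardiomyocyte marker with the largest difference (-0.73 ± 0.21). The part of cell composition in the members' values was not tested.

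**Figure D4:**
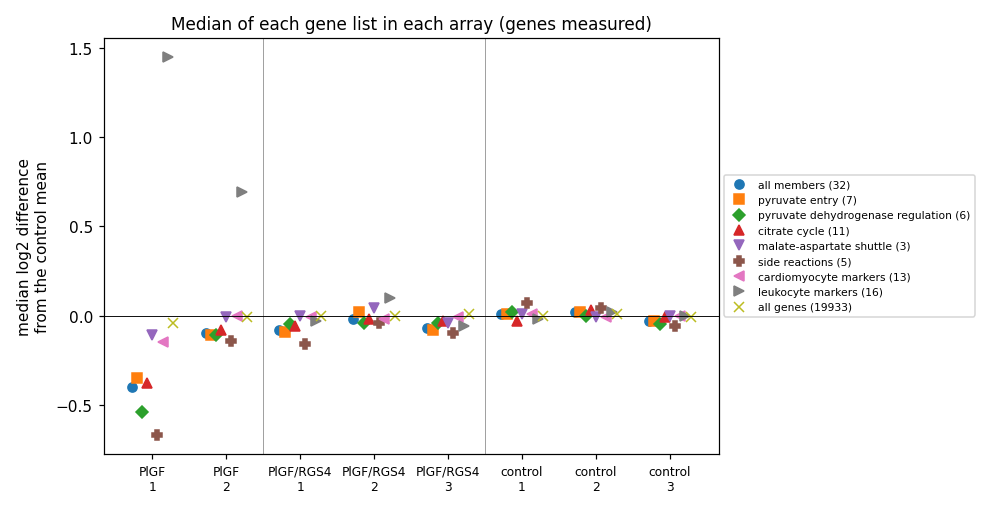
Median of each gene list, as a log2 difference from the control mean, (symbols, with the number of genes measured in the legend) in each of the 8 arrays, with PlGF at the left, PlGF/RGS4 in the middle and control at the right. The members are lowest in PlGF replicate 1 (-0.40), where the leukocyte markers are highest (1.45) and the cardiomyocyte markers stand at -0.15.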

How the data were processed

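For the deposited intensity values the study's methods name Affymetrix Microarray Suite 5 (MAS5) with global scaling, which was not checked here. Replicates were not pooled. The values are linear, from 7.1 to 21704, with array medians of 111.1 to 115.2. Of 3302 probe sets with a mean above 1000, 25.3% held exactly equal values in 2 or more arrays, a property whose source was not tested. Of 28440 probe sets, 21780 carried 1 gene symbol, 1618 carried several and were left out, and 5042 had none. The brightest probe set of each gene was kept, which gave 19933 genes. The genome build used for the arrays is not given in the sources used here.

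Values were analysed as log2 of the intensity plus 1, a scale that understates changes of dim genes. The comparisons used limma 3.58.1 under R 4.3.3, in a fit of 3 group means to all 8 arrays with Benjamini-Hochberg adjustment over all genes and a threshold of 0.05. The script was tested on simulated data. The spread has 5 residual degrees of freedom, so the number of arrays limits the precision. With 2 PlGF arrays no SD is given for that group. Each SE comes from limma and is in log2 units. Single genes had a two-sided exact permutation test, which cannot give a p under 0.1. Intensities of different probe sets were not compared as levels.

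The members, the wider gene list and the marker lists were chosen with earlier results of these data known. Array values are given for the members with the smallest p of each comparison (10 for PlGF versus control and 3 for each of the others), for members past the threshold, for Pcx and for related pairs of enzymes. Alternatives were quantile normalization, centring on the median, a filter on dim genes, all probe sets, a trended prior, the 2 groups alone, the methods' t-test, a replicate block, another pseudocount and each array left out. The microRNA arrays of the study were not analysed here.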

Additional observations from a re-analysis of the deposited data

How the results depend on the processing

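In PlGF versus control, the count of members past the adjusted threshold was 1 (beside 0.748% of all genes lower). It was 2 with each array centred on its median (beside 1.59%). It was 0 with quantile normalization, the arrays of the 2 groups alone, the methods' t-test and the replicate block. The count lower at an unadjusted p under 0.05 was 17 (beside 11.7% of all genes). It was 8 with the 2 groups alone (beside 7.93%) and 3 by the methods' t-test (beside 5.42%). The median of -0.27 was -0.20 with quantile normalization and -0.32 after centring, which also brought Cs past the threshold. Leaving out 1 array at a time gave 0 to 22 members past the adjusted threshold (22 without PlGF replicate 2), 6 to 24 lower before adjustment (6 without PlGF replicate 1) and a median of -0.40 to -0.10. Got2 changed sign with quantile normalization (0.03) and was at 0.00 without PlGF replicate 1.

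In PlGF/RGS4 versus control, the count lower before adjustment was 1 (beside 2.28% of all genes). It was 3 for the 2 groups alone (beside 4.12%), 3 by the methods' t-test (beside 3.03%) and 0 with the replicate block (beside 1.93%). Leaving out 1 PlGF/RGS4 or control array at a time gave 0 to 2 (beside 1.58% to 2.54%) and a median of -0.07 to -0.03. In PlGF versus PlGF/RGS4, the count lower before adjustment was 12 (beside 10.6% of all genes). It was 8 under quantile normalization (beside 11.9%), 5 for the 2 groups alone (beside 6.55%) and 2 by the methods' t-test (beside 4.56%). The median of -0.21 in this comparison was -0.16 under quantile normalization and -0.26 after centring. Leaving out 1 array at a time gave 0 to 21 members past the adjusted threshold, 1 to 24 lower before adjustment and a median of -0.38 to -0.05. The cause of these changes was not tested. Where 1 PlGF array is left out, the lone array is assumed to vary like the other groups.

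The replicate numbers were not taken as pairs. The correlation of same-numbered arrays' deviations was -0.148 and -0.144 for PlGF and control and -0.134 and -0.217 for PlGF and PlGF/RGS4. The deviations of the 2 PlGF arrays from their mean mirror each other, so these values cannot show whether arrays were paired. For PlGF/RGS4 and control the correlation was 0.0756, 0.296 and 0.101, and 1 of these 3 pairs was under 0.1. Differently numbered arrays of these groups had -0.235 to 0.159. The value of 0.296 joins replicate 2 of both groups, which had low Xist. The methods name no pairing. With the replicate block, 14 members were lower in PlGF versus control before adjustment, beside 9.38% of all genes. With 2 PlGF arrays, of which replicate 1 lay farther from control, neither the size nor the spread of the PlGF values can be told precisely.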
